A study of Homo sapiens with 48 samples.

Results

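The transcripts of 8 nuclear import receptors and of CAND1 were followed in HEK293T cells, a human embryonic kidney line, after T-REX delivery of the lipid-derived electrophile HNE to NCBP1. The members were chosen by gene name among the 14685 genes counted at every time point, and all 9 of 9 were present. They are the importin alphas KPNA1, KPNA2, KPNA3, KPNA4 and KPNA6, the importin betas KPNB1, IPO5 and IPO7, and CAND1. The cells carried the label WT for genotype and, per the study's Methods, were transfected with a plasmid that expresses NCBP1, a subunit of the nuclear cap-binding complex, fused to Halo, so that T-REX cells and all 3 controls share the transfection. T-REX cells were those labelled as the reaction, in which a photocaged HNE precursor bound to Halo is released by light. The controls were light alone (labelled control UV), probe alone (labelled control Pre) and DMSO. The list of T-REX controls in the Methods gives the precursor as present in light alone as well as in probe alone, with light only in the former, and vehicle without light in DMSO. Read literally, that entry gives light alone the same precursor and light as T-REX. The study's Results name the control light alone, beside probe alone and vehicle, and the sample labels do not settle which holds. Comparisons with light alone carry this limit. RNA was taken 3, 6 and 12 h later, in 4 libraries for each arm at each time, 48 in all. The study describes the 4 replicates of each arm as independent biological ones, while the labels give only a replicate number. The protein made from the plasmid is an overexpressed fusion in 1 cell line, which limits the cells as a model of endogenous NCBP1.

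Importin alphas are adaptors that read the classical nuclear localization signal of a cargo protein and tie it to importin beta 1 (KPNB1), which carries the complex through the nuclear pore. IPO5 and IPO7 are importins of the beta family that bind cargo directly, ribosomal proteins and histones among them. Inside the nucleus the GTPase Ran in its GTP form releases the cargo, and CSE1L returns the importin alphas to the cytoplasm. CAND1 has a different role although it too is built of HEAT repeats: it binds cullins that carry no NEDD8 and exchanges the substrate receptors of cullin-RING ubiquitin ligases. NCBP1 and its partner NCBP2 form the complex on the cap of new transcripts, and the importin alpha-beta pair is known to carry that complex into the nucleus.

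Promoters are shown for the 5 members whose transcripts were called lower in T-REX cells than in DMSO cells at 3 h, namely 2 importin alphas, 2 importin betas and CAND1. Each sequence is the 250 bases before the annotated start, from RefSeq on GRCh38.p14, written 5′ to 3′ on the strand of the gene. Capitals mark short motifs searched on either strand, namely the CCAAT box, the core of the cell cycle homology region, the GC box, the E-box and the start of a cyclic AMP response element, whose letters are given after the sequences.
KPNA2, chr17:68035485-68035734 (plus strand): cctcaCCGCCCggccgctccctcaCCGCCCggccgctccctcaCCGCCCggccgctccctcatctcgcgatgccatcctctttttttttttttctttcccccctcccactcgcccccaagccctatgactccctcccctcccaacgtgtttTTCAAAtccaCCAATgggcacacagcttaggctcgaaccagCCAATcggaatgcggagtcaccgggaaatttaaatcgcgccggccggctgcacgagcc
KPNA3, chr13:49792683-49792932 (minus strand): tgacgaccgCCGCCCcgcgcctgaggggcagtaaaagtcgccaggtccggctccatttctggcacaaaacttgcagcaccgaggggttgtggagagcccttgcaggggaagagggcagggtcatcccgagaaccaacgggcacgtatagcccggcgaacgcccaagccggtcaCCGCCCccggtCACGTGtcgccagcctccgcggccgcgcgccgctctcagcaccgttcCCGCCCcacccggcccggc
IPO5, chr13:97953425-97953674 (plus strand): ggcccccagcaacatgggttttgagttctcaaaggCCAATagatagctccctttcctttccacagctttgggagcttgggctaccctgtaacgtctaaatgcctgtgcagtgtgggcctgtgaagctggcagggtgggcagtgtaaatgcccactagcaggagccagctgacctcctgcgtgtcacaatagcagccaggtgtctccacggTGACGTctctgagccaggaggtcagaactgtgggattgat
IPO7, chr11:9384402-9384651 (plus strand): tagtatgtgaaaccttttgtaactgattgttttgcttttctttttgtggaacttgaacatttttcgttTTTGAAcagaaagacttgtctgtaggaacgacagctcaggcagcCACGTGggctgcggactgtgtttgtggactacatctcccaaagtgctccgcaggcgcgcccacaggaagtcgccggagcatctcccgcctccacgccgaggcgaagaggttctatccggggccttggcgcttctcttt
CAND1, chr12:67269108-67269357 (plus strand): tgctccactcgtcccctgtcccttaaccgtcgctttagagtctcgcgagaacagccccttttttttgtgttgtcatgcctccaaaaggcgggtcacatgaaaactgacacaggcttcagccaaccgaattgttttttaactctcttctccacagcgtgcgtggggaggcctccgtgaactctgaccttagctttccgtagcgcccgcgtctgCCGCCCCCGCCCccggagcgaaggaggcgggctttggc
The promoter table held 7 of the 9 members. In it CCAAT or its complement stood in KPNA2, KPNA6 and IPO5, and in 32% of the 35116 promoters of this length. KPNA2 held 2 copies of CCAAT, at 89 and 58 bases before the start, with the core of the cell cycle homology region in reverse 99 bases before it, and its 3 GC boxes lay further out. That core, TTTGAA, stood in KPNA2 and IPO7 and in 13.3% of all promoters. The E-box, CACGTG, whose letters read the same on both strands, stood in KPNA3 and IPO7 and in 6.34% of all. The GC box, GGGCGG, stood in KPNA1, KPNA2, KPNA3 and CAND1 and in 42.6% of all, with the 2 copies in CAND1 side by side. The letters TGACGT, the start of the cyclic AMP response element, stood in IPO5 and in 7.1% of all. GCGCATGC (part of the NRF1 motif, in 2.63% of all) and CCGGAAG (an ETS core, in 8.52%) were also searched on both strands and stood in none of the 7. No overlap between different motifs occurred in the 5 sequences shown, none of the motifs was held by all 5, and the matches are letters only.

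Library totals lay between 23952455 and 37099535 counts. The members were well covered: the lowest count of any of them was 2351 (KPNA3) and the highest 27821 (KPNB1) in 1 library, so that counting error was at most 2.06% of a value. NCBP1, in which plasmid and endogenous transcripts cannot be separated, accounted for 3.09% to 8.99% of the counts, depending on the library. The Methods name CAND1 and IPO5 fusions beside that of NCBP1 where they describe the transfection for RNA work, and the labels name none per library. No library of the 48 held over 604 CPM of CAND1 or over 669.5 CPM of IPO5, against at least 30797 CPM of NCBP1. Of the markers of this line, LHX1, EYA1, SALL1, CDH2, VIM, KRT8, KRT18 and NEFM were listed, with median values between 2.15 (LHX1) and 525 CPM (VIM), and PAX2 and TUBB3 were not among the listed genes. Of 6 markers of blood, liver, vessel, fibroblast and muscle cells only COL1A1 was listed, at a median of 3.63 CPM. CPM here are counts scaled to a common library total with TMM factors. Libraries stood apart within 3 groups. T-REX replicate 4 at 3 h lay below its group mean for all 9 members and was the lowest of its group for 8 of them (all but CAND1), by -0.176 for KPNB1 and -0.145 for KPNA2 on the log2 scale. It also had the lowest total of the 48 libraries and held 55600 CPM of NCBP1, against 76430 to 92200 in the other 3. Without it the members called at 3 h stayed at 5 against DMSO and went from 2 to 0 against probe alone, and from 4 to 5 (KPNB1 gained) for 6 h against 3 h in T-REX cells. Light alone replicate 3 at 6 h and DMSO replicate 3 at 12 h held more IPO7, CAND1 and KPNA3 than the other 3 libraries of their group, and they also held the extreme values of the first of the 2 factors of unwanted variation (RUV) deposited for each library (-0.664 and 0.788). Over 100-base windows of the coding sequence, 4.44% of KPNA2, 3.98% of KPNA6, 2.99% of IPO7 and 1.16% of KPNA4 were identical to a transcript of another gene in GENCODE 29, KPNA2P3 and IPO7P2 among them, and 0% of the other 5 members. Of those genes only the joined transcript ARHGAP27P1-BPTFP1-KPNA2P3 is in the count tables. How reads that fit more than 1 gene were treated is not given in the sources used here.

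KPNA2 was the most abundant member per length. Over the 48 libraries its median was 207 (range 139 to 265) CPM per kb of merged exons. The carriers followed, with KPNB1 at 86.6 (range 71.9 to 107), IPO7 at 73.8 (range 62.6 to 98.8) and IPO5 at 60 (range 48.9 to 69.2) CPM per kb. CAND1 stood at 36.2 (range 31.7 to 44.2), KPNA6 at 32.9 (range 27.4 to 38.2), KPNA4 at 29.4 (range 24.4 to 35.5), KPNA1 at 26.4 (range 24.2 to 29.5) and KPNA3 at 25.4 (range 18.6 to 31.6) CPM per kb. The range of KPNA2 over libraries did not overlap that of any other member, IPO5 and CAND1 did not overlap either, and all other neighbours in this order did. The order depends on the annotated exons, since merged exon lengths run to the untranslated ends of every transcript. Among the 5 importin alphas KPNA2, the form most tied to proliferating cells, made up a median of 64.9% (range 62.1 to 66.8%) of the summed CPM per kb at 3 h and 64.6% (range 62.1 to 66.9%) at 6 h. For 12 h the share was 60.7% (range 57.5 to 62.8%). The sum itself was 328 ± 20.2 CPM per kb in T-REX cells at 3 h and 374 ± 14.2 in DMSO cells (mean ± SD, n = 4). At 12 h it was 256 ± 4.09 in T-REX cells and 269 ± 11.1 in DMSO cells.

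**Figure D1:**
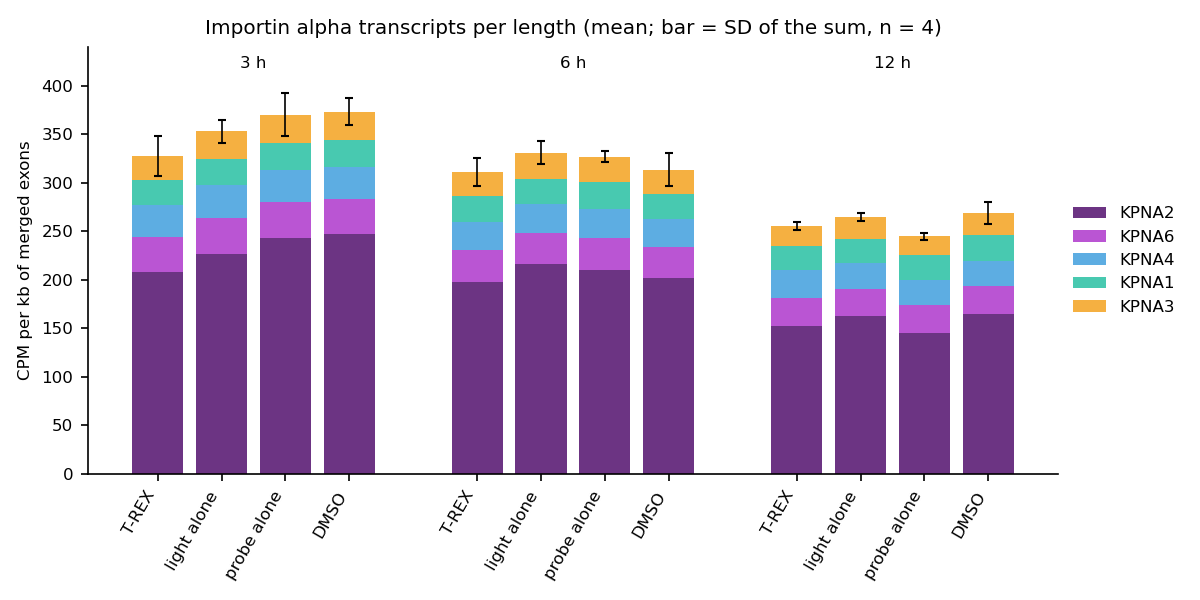
Transcripts of the 5 importin alphas per length (CPM per kb of merged exons, stacked group means; error bars are the SD of the sum, n = 4 libraries) for each arm and time point. The KPNA2 segment is the tallest in every bar, and the sum stood at 374 ± 14.2 in DMSO cells at 3 h and at 269 ± 11.1 in DMSO cells at 12 h.

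The first question was whether RNA levels of the import receptors changed after HNE delivery to NCBP1. At 3 h, 5 of the 9 members were lower in T-REX cells than in DMSO cells and none was higher, by edgeR's quasi-likelihood test at an adjusted p of at most 0.05: IPO7, KPNA3, IPO5, CAND1 and KPNA2. Over all genes, 4.54% were called lower in this comparison. Against probe alone, IPO7 and IPO5 were lower, where 0.81% of all genes were, and against light alone 0 of 9 members were called, where 0.197% of all genes were. An unadjusted p under 0.05 was reached by 4 members against light alone, beside 2174 of all 14685 genes. DESeq2 called KPNA3 there and limma-trend none. IPO7 and IPO5 thus met the study's criterion, a change of 1 sign against 2 or more of the 3 controls, as did 0.769% of all genes in the lower direction. The changes of the 5 members against DMSO were small, from -14.3% (IPO5) to -18.7% (IPO7). The 3 comparisons share the T-REX libraries. In bulk RNA, fewer cells of a kind and less RNA per cell cannot be told apart.

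IPO7, a carrier of ribosomal proteins and histones, had the lowest adjusted p of the members. In the 4 T-REX libraries at 3 h it stood at 475, 475, 478 and 453 CPM. In light alone cells it stood at 497, 512, 510.5 and 494 CPM, in probe alone cells at 554, 565, 518 and 520.5 CPM and in DMSO cells at 598, 599, 545 and 579 CPM. All 4 T-REX libraries were below all 12 control libraries, and light alone was itself below DMSO in every library. The difference from DMSO was called (log2 fold change -0.30 ± 0.0441 SE, adjusted p = 0.00104), as was that from probe alone (log2 fold change -0.18 ± 0.0441 SE, adjusted p = 0.0473). The difference from light alone was smaller and not called (log2 fold change -0.10 ± 0.0441 SE, adjusted p = 0.291).

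IPO5, which carries the ribosomal protein and histone cargo named above and was itself built as a Halo fusion in the study, was read at 519.5, 520.5, 479 and 473 CPM in T-REX cells at 3 h. The light alone libraries gave 532, 529.7, 513 and 526 CPM. Probe alone gave 592, 619.8, 561 and 539.6 CPM and DMSO 586, 598, 543 and 602 CPM. T-REX libraries were all below those of probe alone and DMSO but overlapped light alone. The change was called against DMSO (log2 fold change -0.22 ± 0.0485 SE, adjusted p = 0.0104) and probe alone (log2 fold change -0.20 ± 0.0484 SE, adjusted p = 0.0473), and not against light alone (log2 fold change -0.08 ± 0.0485 SE, adjusted p = 0.489).

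CAND1, the exchange factor of cullin ligases, stood at 492, 468, 433 and 433 CPM in T-REX cells at 3 h. With light alone it stood at 521, 497, 495 and 515 CPM, with probe alone at 504, 570.3, 495 and 494 CPM and with DMSO at 532, 554, 507 and 562 CPM. The T-REX libraries lay below all 12 control libraries, though the highest T-REX and the lowest control value were close. The call was made against DMSO alone (log2 fold change -0.24 ± 0.0522 SE, adjusted p = 0.0116), with log2 fold changes of -0.16 against probe alone (adjusted p = 0.107) and -0.15 against light alone (adjusted p = 0.175) in the same fit.

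Of the importin alphas, KPNA3 and KPNA2 were called. KPNA3, an adaptor of the subfamily that also holds KPNA4, gave 115, 111, 112 and 101 CPM in T-REX cells at 3 h. Light alone gave 124, 122, 129 and 131 CPM, probe alone 129.5, 142, 124 and 119 CPM and DMSO 124, 139, 128 and 134 CPM for this gene. No control library of KPNA3 was as low as any T-REX library, and the difference from DMSO was called (log2 fold change -0.25 ± 0.0546 SE, adjusted p = 0.00976). The log2 fold changes of KPNA3 against probe alone (-0.21) and light alone (-0.21) were of nearly the same size and not called (adjusted p = 0.0624 and 0.0904). KPNA2 stood at 652, 674, 695 and 589 CPM in T-REX cells and at 752, 685, 693 and 715 CPM with light alone. Probe alone gave 765, 833, 757 and 699 CPM and DMSO 761, 811, 734 and 794 CPM for KPNA2. The T-REX values of KPNA2 were all below those of DMSO and probe alone and overlapped light alone, and the change was called against DMSO (log2 fold change -0.24 ± 0.0554 SE, adjusted p = 0.0134).

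The T-REX libraries were below every control library for 3 members (KPNA3, IPO7 and CAND1), a pattern that 1.65% of all genes showed at 3 h. The other 4 members were not called in any comparison with T-REX at 3 h. KPNA1, an adaptor of the subfamily of KPNA6, stood at 222 ± 13.2 CPM in T-REX cells and 235 ± 6.98 CPM in DMSO cells (mean ± SD, n = 4). For KPNA4 the means were 309 ± 21.1 and 313 ± 11.4 CPM, and for KPNA6 they were 271 ± 17.4 and 271 ± 13.9 CPM. KPNB1, the common partner of the adaptors, stood at 736 ± 64.9 and 752 ± 28.9 CPM. The median log2 fold change of the 9 members was -0.22 against DMSO, -0.16 against probe alone and -0.08 against light alone, beside 0.03, 0.02 and 0.00 over all genes. NCBP1 took 7.53% ± 1.29 of the counts in T-REX cells (mean ± SD, n = 4) and 5.3% ± 0.635 in DMSO cells, a log2 fold change of 0.50 (adjusted p = 0.029 by edgeR's quasi-likelihood test). Against probe alone, where IPO7 and IPO5 were called, its log2 fold change was 0.25 and not called (adjusted p = 0.308 by the same test). The part of NCBP1 in the members' values was not tested.

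These calls differ in how far they rest on single libraries. Against DMSO at 3 h, 4 or 5 members were called whichever of the 8 libraries was left out, KPNA2 being lost without DMSO replicate 2. Only IPO7 and KPNA3 were called when just these 2 arms were fitted. Against probe alone, the number of members called ran from 0 to 4, and IPO7 was called in 2 and IPO5 in 3 of 8 such fits. Their adjusted p of 0.0473 was close to the threshold, and both calls were lost without T-REX replicate 2 or 4 or probe alone replicate 1, 2 or 3, that of IPO7 also without T-REX replicate 1. Neither was called when the T-REX and probe alone libraries were fitted without the other arms. The rule of at least 2 controls left 0 members without any 1 of 10 libraries: T-REX replicate 2 or 4, light alone replicate 1 or 4, probe alone replicate 1, 2 or 3, or DMSO replicate 1, 2 or 4. In the other direction, DESeq2 and the fit with the RUV factors as covariates each called 5 members against probe alone and 5 by that rule, the same 5 as against DMSO. The share of all genes called under these alternatives is not given here, so a larger count need not be particular to the members.

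**Figure D2:**
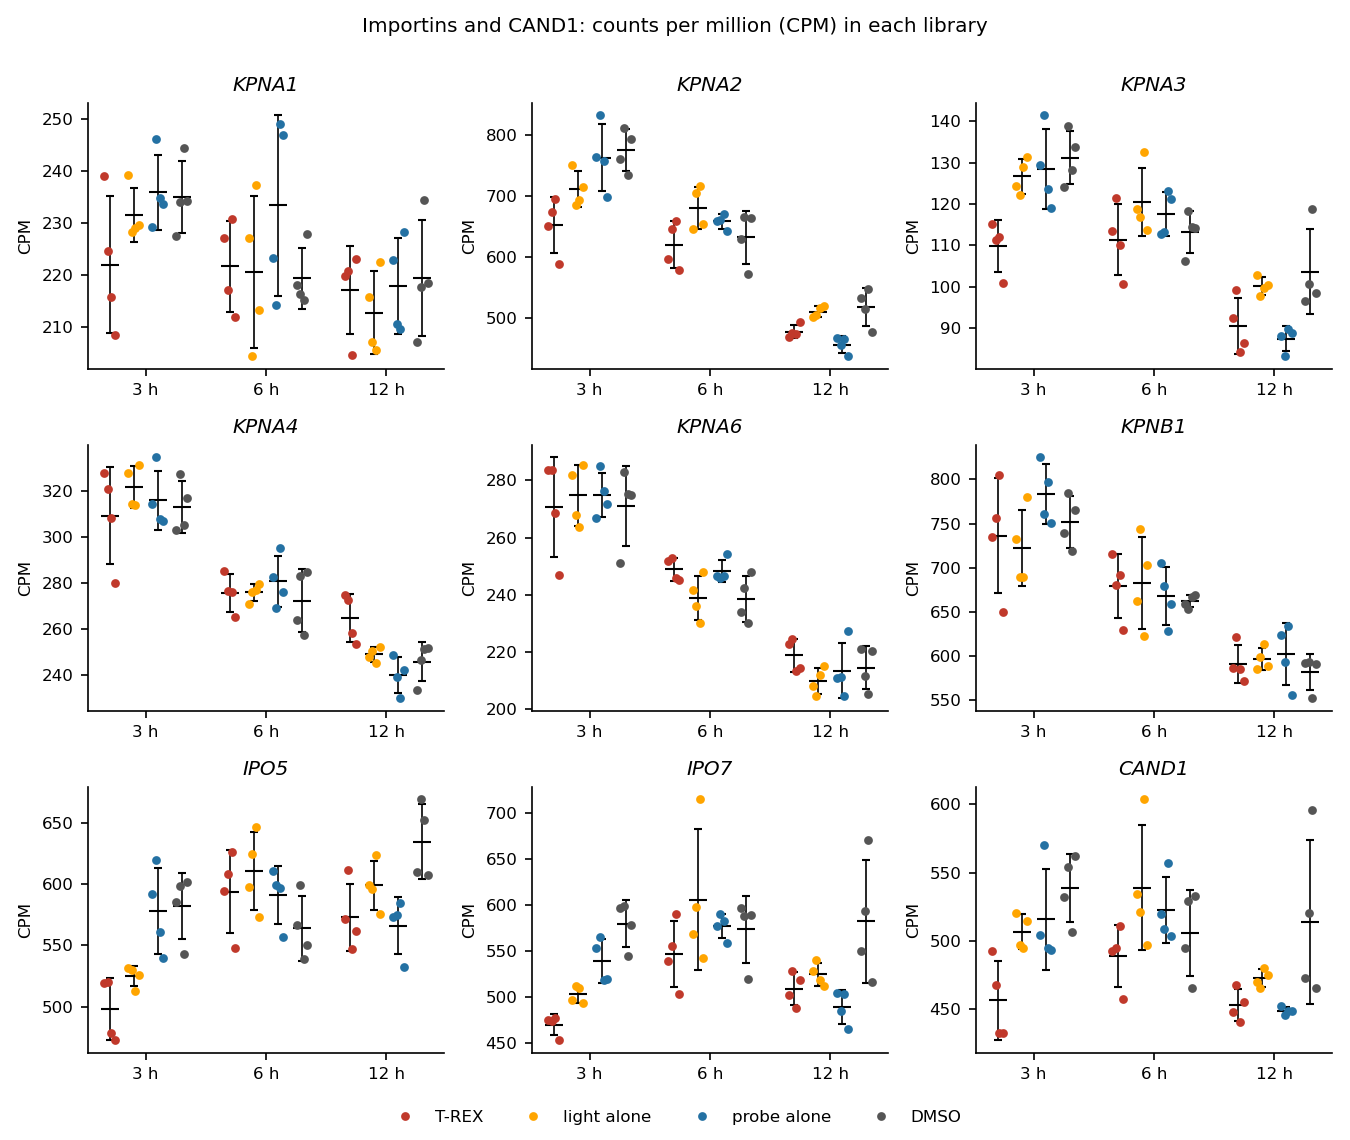
CPM of the 9 members in each of the 48 libraries (points), by hours after treatment on the horizontal axis and by arm in colour; black bars are the group mean ± SD, n = 4, and the vertical axes do not start at 0. At 3 h the T-REX points of KPNA3, IPO7 and CAND1 lie under all control points, and KPNA2 and KPNA4 are lower in every arm at 12 h than at 3 h.

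**Figure D3:**
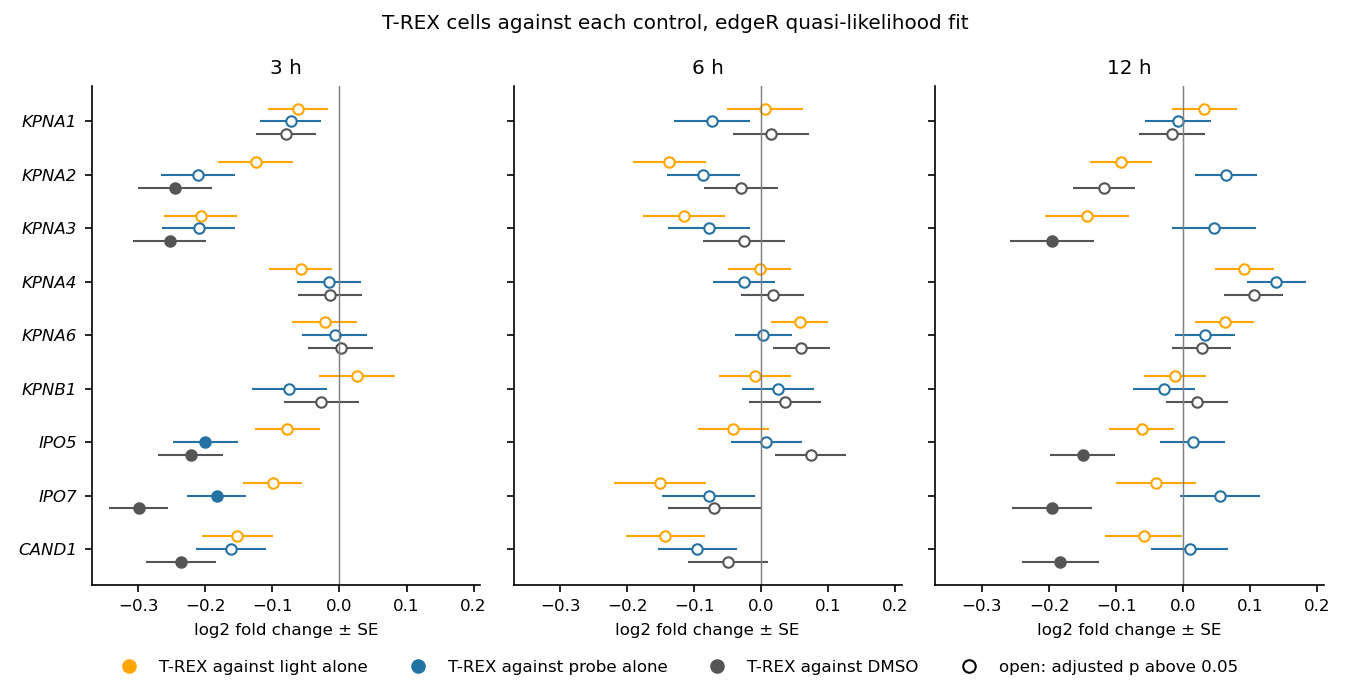
Log2 fold change ± SE of each member in T-REX cells against each control at 3, 6 and 12 h (filled points, adjusted p of at most 0.05). Filled points lie left of 0 in each case, with 5 against DMSO and 2 against probe alone at 3 h, none at 6 h and 4 against DMSO at 12 h.

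At 6 h, none of the 9 members was called in T-REX cells against light alone, probe alone or DMSO, comparisons in which 0.218%, 0.109% and 0.415% of all genes were called, nor against at least 2 controls (0.136% of all genes). DESeq2 and limma-trend also called 0 members. At an unadjusted p under 0.05 the counts were 3, 0 and 0 of 9, beside 1711, 964 and 1826 of all 14685 genes. With the RUV factors as covariates some members were called against light alone, as given in the closing section. IPO7 now stood at 539, 555, 590.2 and 504 CPM in T-REX cells and at 598, 588, 520.3 and 589.8 CPM in DMSO cells. With light alone it stood at 569, 598, 716 and 542 CPM and with probe alone at 578, 591, 583 and 559 CPM. The T-REX values fell within the span of the controls except for replicate 4, and light alone replicate 3 was the highest of the 16. IPO5 gave 594, 608, 626 and 548 CPM in T-REX cells and 567, 599.7, 539 and 551 CPM with DMSO. Light alone gave 598, 625, 646 and 574 CPM and probe alone 611, 599, 597 and 557 CPM for IPO5. All 4 arms overlapped for this gene.

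CAND1 at 6 h stood at 493, 495, 511 and 458 CPM in T-REX cells and 495, 529, 466 and 533 CPM in DMSO cells. It stood at 534, 521, 604 and 497 CPM with light alone and at 519.5, 509, 557 and 504 CPM with probe alone. The T-REX values overlapped those of each control. For KPNA3 the values were 114, 121, 110.0 and 101 CPM in T-REX cells, 119, 117, 132 and 114 CPM with light alone, 113, 113, 123 and 121 CPM with probe alone and 106, 118, 114 and 114 CPM with DMSO. For KPNA2 they were 597, 647, 659 and 579 CPM in T-REX cells, 647, 705, 717 and 655 CPM with light alone, 659, 661, 671 and 644 CPM with probe alone and 629.5, 666, 573 and 664 CPM with DMSO. Neither adaptor separated the arms. The log2 fold changes of the 9 members against DMSO at 6 h ran from -0.07 (IPO7) to 0.07 (IPO5). NCBP1 was higher in T-REX than in light alone cells at this time point (log2 fold change 0.80, adjusted p = 0.0214 by edgeR's quasi-likelihood test), a comparison without a called member. With probe alone it took 8% ± 1.09 of the counts and with DMSO 5.39% ± 0.524 (mean ± SD, n = 4), and 0 members were called between these arms. The part of NCBP1 in the members' values was not tested at 6 h either.

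At 12 h, IPO7, CAND1, KPNA3 and IPO5 were again lower in T-REX cells than in DMSO cells, where 6.79% of all genes were called lower. The same 4 members and KPNA2 were lower in probe alone than in DMSO cells, where 3.37% of all genes were. No member was called in T-REX cells against light alone (1.29% of all genes), against probe alone (0.701%) or by the rule of at least 2 controls (1.4%). DESeq2 and limma-trend also called 0 members in these, while the fit with the RUV factors as covariates made calls in each, as given in the closing section. An unadjusted p under 0.05 was reached by 2 and 1 of 9 members against light alone and probe alone, beside 1891 and 1637 of all 14685 genes.

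DMSO replicate 3 was the highest of its group at 12 h for IPO7, CAND1, KPNA3 and KPNA2. IPO7 stood at 550.3, 594, 671 and 516 CPM in DMSO cells and at 503, 529, 488 and 519 CPM in T-REX cells. It stood at 505, 485, 503 and 466 CPM with probe alone and at 529, 540.5, 519 and 512 CPM with light alone. T-REX overlapped DMSO through DMSO replicate 4, while probe alone lay below every DMSO library. The difference from DMSO was called for T-REX (log2 fold change -0.20 ± 0.0595 SE, adjusted p = 0.0346) and for probe alone (log2 fold change -0.25 ± 0.0595 SE, adjusted p = 0.0175).

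CAND1 at 12 h gave 473, 520.2, 596 and 466 CPM in DMSO cells and 448, 468, 441 and 456 CPM in T-REX cells. Probe alone gave 452, 446, 449 and 449 CPM and light alone 469.8, 465, 480.5 and 475 CPM. DMSO replicate 3 lay far above the rest, and all 4 DMSO libraries lay above those of probe alone. Against DMSO the log2 fold change of CAND1 was -0.18 for T-REX (adjusted p = 0.0394) and -0.19 for probe alone (adjusted p = 0.0491, a call lost with limma-trend and with the replicate block). KPNA3 gave 96.6, 101, 119 and 98.5 CPM with DMSO, 92.3, 99.2, 84.1 and 86.5 CPM in T-REX cells, 88.1, 83.1, 89.7 and 88.9 CPM with probe alone and 103, 97.8, 99.6 and 100.3 CPM with light alone. Its log2 fold change against DMSO was -0.20 for T-REX (adjusted p = 0.0428) and -0.24 for probe alone (adjusted p = 0.0262). Every probe alone library of KPNA3 was below every DMSO and every light alone library.

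IPO5 at 12 h stood at 609.8, 669.5, 652 and 608 CPM in DMSO cells and at 572, 611, 547 and 562 CPM in T-REX cells. With probe alone it stood at 573, 575, 584 and 532 CPM and with light alone at 599.5, 596, 624 and 576 CPM. Here DMSO replicate 2, not replicate 3, was the highest. The log2 fold change against DMSO was -0.15 for T-REX (adjusted p = 0.0466) and -0.16 for probe alone (adjusted p = 0.0482). KPNA2 gave 533, 516, 548 and 478 CPM with DMSO, 470.3, 476, 474 and 493 CPM in T-REX cells, 468, 457, 466 and 438 CPM with probe alone and 502, 505, 518 and 519.8 CPM with light alone. The T-REX values of KPNA2 were below every light alone value and above all probe alone values but none of these gaps was called, and against DMSO the log2 fold change was -0.12 for T-REX (adjusted p = 0.0992) and -0.18 for probe alone (adjusted p = 0.0237).

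Leaving out DMSO replicate 3 took the members called in T-REX cells against DMSO at 12 h from 4 to 0, as did leaving out DMSO replicate 2 or T-REX replicate 1, 3 or 4, and CAND1 was also lost without T-REX replicate 2. A fit of the T-REX and DMSO libraries alone also gave 0 at 12 h. The log2 fold change of IPO7 ran from -0.25 to -0.11 and that of CAND1 from -0.23 to -0.10 over these fits. For probe alone against DMSO, the count was 5 with all libraries, 2 without DMSO replicate 3 (IPO7 and KPNA2) or probe alone replicate 1, 3 without DMSO replicate 2 or probe alone replicate 3, 1 without probe alone replicate 4 (KPNA3) and 0 without probe alone replicate 2. KPNA4, an adaptor, showed the opposite arrangement at 12 h: it gave 275, 272, 258 and 253 CPM in T-REX cells, and the 12 control libraries lay between 229.9 and 252 CPM. All 4 T-REX libraries were above every control, a pattern shown by 0.899% of all genes, and the difference was not called against any control (log2 fold changes 0.09, 0.14 and 0.10 for the controls in the order light, probe and DMSO, adjusted p = 0.386, 0.179 and 0.124 by edgeR's quasi-likelihood test). With the RUV factors as covariates KPNA4 was called higher against probe alone and DMSO (0.14 and 0.11). KPNA1, KPNA6 and KPNB1 were within -0.02 and 0.03 of DMSO on the log2 scale in T-REX cells. NCBP1 took 5.9% ± 0.534 of the counts in T-REX cells, 6.03% ± 1.01 with probe alone, 4.19% ± 0.681 with light alone and 3.51% ± 0.505 with DMSO (mean ± SD, n = 4). Its log2 fold change against DMSO was 0.73 for T-REX and 0.77 for probe alone. In T-REX against light alone cells no member was called, as given above, and the part of NCBP1 in the members' values was not tested.

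Among the controls, the members were otherwise not called. At 3 h, 0 of 9 were called between light alone and DMSO (0.00681% of all genes), between probe alone and DMSO (0.00681%) and between light alone and probe alone (0.232%). An unadjusted p under 0.05 was reached by 3, 1 and 1 members, beside 1143, 751 and 2060 of all 14685 genes. DESeq2 called IPO7 in the first of these comparisons, and limma-trend called none. Light alone at 3 h stood between T-REX and DMSO for IPO7 and IPO5, with log2 fold changes of -0.20 and -0.14 against DMSO (adjusted p = 0.208 and 0.473) and no overlap with DMSO in either. How many of all genes separate single arms in this way was not counted at any time point, so such gaps are descriptions only. At 6 h, 0 of 9 members were called in the same 3 comparisons (0.00681%, 0.0272% and 0.0613% of all genes), and none by DESeq2 or limma-trend. At an unadjusted p under 0.05 there were 1, 0 and 0 members, beside 2109, 1206 and 1236 of all genes. At 12 h, 0 of 9 were called between light alone and DMSO (0.0136% of all genes) and between light alone and probe alone (0.415%). There were 2 members each at an unadjusted p under 0.05, beside 1525 and 1856 of all genes. DESeq2 called KPNA2 in the second and limma-trend none.

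The widest changes of the members were with time. Between 3 and 12 h, 7 of 9 members fell and 1 rose in the mean of the 3 controls, by edgeR's quasi-likelihood test over all 48 libraries. Over all genes, 29.8% fell and 31.1% rose in that comparison. In T-REX cells 5 fell and 1 rose, beside 20.6% and 21.1% of all genes. The adaptors and their partner KPNB1 made up most of the falls. KPNA2 fell by 0.60 on the log2 scale in the controls (standard error 0.0302, adjusted p = 2.73e-22) and by 0.45 in T-REX cells (standard error 0.0523, adjusted p = 1.5e-09). In DMSO cells KPNA2 went from 775 ± 34.5 CPM at 3 h to 519 ± 30.5 CPM at 12 h (mean ± SD, n = 4), and the groups of the 2 times did not overlap in any arm.

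KPNA3 fell by 0.41 in the controls and by 0.28 in T-REX cells. The changes of KPNA4 were -0.37 in the controls and -0.22 in T-REX cells, those of KPNA6 -0.36 and -0.31, and those of KPNB1 -0.34 and -0.32 on the log2 scale, all called. KPNA1 fell by less, at -0.11 in the controls (adjusted p = 0.000586), and was not called by limma-trend or in T-REX cells (-0.03, adjusted p = 0.633). The beta-type carriers IPO5 and IPO7 were not called lower with time, unlike KPNB1. IPO5 rose by 0.09 in the controls and by 0.20 in T-REX cells between 3 and 12 h (adjusted p = 0.0035 and 0.000781). IPO7 had log2 fold changes of -0.02 and 0.12 that were not called (adjusted p = 0.567 and 0.119). CAND1 fell by 0.12 in the controls (adjusted p = 0.00138, not called by limma-trend) and stood at -0.01 in T-REX cells (adjusted p = 0.9).

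Part of the change was present by 6 h. In the controls 5 members fell between 3 and 6 h (KPNA4, KPNA6, KPNA2, KPNB1 and KPNA3), beside 20% of all genes, and IPO7 rose, beside 21.5% of all genes. Their log2 fold changes ran from -0.20 (KPNA4) to -0.14 (KPNA3), and that of IPO7 was 0.12. In T-REX cells KPNA4 and KPNA6 fell (-0.17 and -0.12) and IPO5 and IPO7 rose (0.25 and 0.22), beside 9.8% and 13.5% of all genes. KPNA2 and KPNA3 changed in T-REX cells by -0.07 and 0.02, neither called. Their T-REX values of 3 h, called lower against DMSO only, are the baseline of these changes. The fall of KPNA6 by 6 h in T-REX cells was lost without T-REX replicate 1 or 2 of 3 h or replicate 3 or 4 of 6 h. The comparisons in T-REX cells rest on 8 libraries and those in the controls on 24, so that the standard errors differ. All time points were harvested from cells after transfection, and time after treatment and time in culture cannot be told apart.

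**Figure D4:**
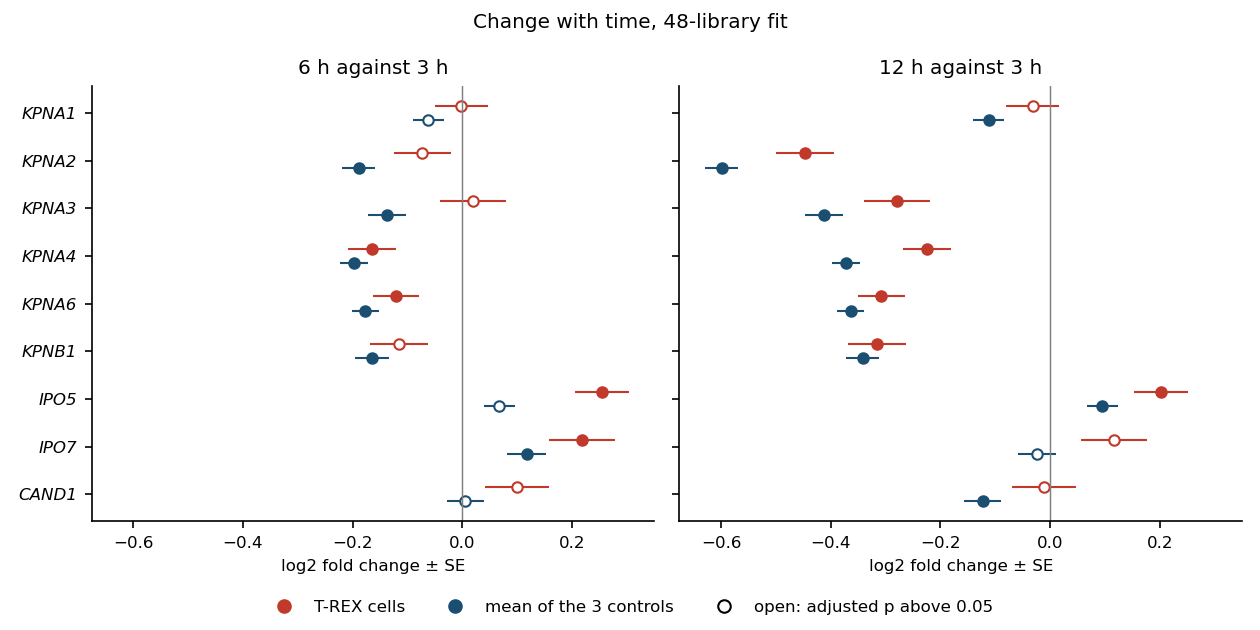
Log2 fold change ± SE of each member at 6 h and at 12 h against 3 h, in T-REX cells and in the mean of the 3 controls (filled points, adjusted p of at most 0.05). KPNA2 lies farthest left at 12 h in both, at -0.45 in T-REX cells and -0.60 in the controls, and IPO5 lies right of 0.

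Whether the difference between T-REX cells and the mean of the controls changed with time was tested directly with interaction terms. No member was called at 6 h against 3 h, where 0% of all genes were called higher and 0% lower, or at 12 h against 3 h, where 0.0545% were called higher and 0.0613% lower. DESeq2 and limma-trend called none of the 9 either. An unadjusted p under 0.05 was reached by 2 members at 6 h and 2 at 12 h, beside 1097 and 1621 of all 14685 genes. All 9 interaction values were positive at both times, from 0.03 (KPNA4) to 0.19 (IPO5) at 6 h and from 0.03 (KPNB1) to 0.15 (KPNA2) at 12 h. Of all genes, 49.8% had negative values at 6 h and 51.6% at 12 h. The T-REX libraries of 3 h enter the values of both times and of all 9 members. Replicate 4 of these lay below its group mean for each member. Neither the times nor the members are therefore independent. With no interaction called, the calls at 3 h and their absence at 6 h are not shown to differ for any single member.

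The neighbouring genes of the pathway were counted from lists, chosen with earlier results of these data known. Of 9 listed import receptors outside the members (of 11 named, KPNA7 and IPO4 not being listed), TNPO1, the carrier of hnRNP proteins, was lower at 3 h in T-REX cells than in DMSO cells, by a log2 fold change of -0.19 (adjusted p = 0.0451), and no other was called in any comparison with T-REX. Of 7 exportins, CSE1L and XPO6 were lower against DMSO at 3 h (-0.20 and -0.19), and CSE1L, which recycles the importin alphas, also at 12 h (-0.18). Of 12 genes of the Ran cycle and pore docking, RAN and RANBP1 were lower against DMSO at 12 h (-0.28 and -0.295) and none was called at 3 h. Of 23 cullin ligase genes, CUL4B and COPS7A were lower against DMSO at 3 h (-0.25 and -0.30), and CUL4B and COPS4 at 12 h (-0.18 and -0.225). None of these lists had a gene called against light alone or probe alone in T-REX cells, or any gene called at 6 h. No listed gene met the rule of at least 2 controls. In probe alone against DMSO at 12 h, RAN, XPO4, XPO5 and COPS7A were lower, between -0.19 and -0.37. Of all genes, 4.54% were called lower in T-REX cells than in DMSO cells at 3 h and 6.79% at 12 h. With probe alone at 12 h it was 3.37%. The 2 of 23 cullin genes, 1 of 9 import receptors, 2 of 7 exportins and 2 of 12 Ran and pore genes are few. They are not read as a result about any of these lists.

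With time the lists did not move as one. Of the 12 Ran and pore genes, 11 fell between 3 and 12 h in the controls and 9 in T-REX cells, and none rose. Of all genes, 29.8% fell and 31.1% rose over that time in the controls, and 20.6% fell and 21.1% rose in T-REX cells. NUP50, which binds the importin alphas at the pore, had log2 fold changes of -0.44 and -0.37. Among the 7 exportins 3 rose and 3 fell in the controls, and 4 rose and none fell in T-REX cells, with XPO1, the main carrier of nuclear export signals, at 0.315 and 0.325. Of the other import receptors, 6 fell and 1 (IPO8, a close relative of IPO7) rose in the controls, and 4 fell and 1 (IPO8) rose in T-REX cells. Of the cullin genes 10 fell and 2 rose in the controls, and 11 fell and 2 rose in T-REX cells. CAND2, the paralogue of CAND1, was one of the 2 that rose in each, at 0.15 and 0.28.

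The members fell into groups by how they varied. Over all 48 libraries, Pearson's r of log2 CPM was 0.94 between KPNA4 and KPNA6, 0.925 between KPNA2 and KPNA3 and 0.874 between KPNA6 and KPNB1. It was 0.824 between IPO7 and CAND1 and 0.738 between IPO5 and IPO7, but -0.421 between KPNA6 and IPO5. The points share the 3 time points. Within groups, after the mean of each arm and time was taken off, IPO7 and CAND1 stood at 0.792, KPNA3 and CAND1 at 0.734, IPO5 and CAND1 at 0.712 and IPO5 and IPO7 at 0.706, whereas KPNB1 and CAND1 stood at -0.129. Among the 5 members called together against DMSO at 3 h (IPO7, CAND1, KPNA3, IPO5 and KPNA2) these values ran from 0.519 to 0.792. Members that were not called there reached values in that range too, with KPNA4 and KPNA6 at 0.631, KPNA1 and CAND1 at 0.61 and KPNA4 and KPNA3 at 0.599. Within groups, CAND1 moved with the first deposited RUV factor at each time: over the 16 libraries of 3, 6 and 12 h in turn, r was 0.829, -0.921 and 0.914, the sign of the factor being arbitrary at each time. For IPO7 r was 0.189, -0.84 and 0.853. At 3 h it was 0.281 for KPNA2, 0.434 for KPNA3 and 0.685 for IPO5, which were called against DMSO. For the members not called there, it was 0.685 for KPNA4, 0.62 for KPNA1, 0.589 for KPNA6 and 0.133 for KPNB1. With the second factor at 3 h, r was 0.943 for KPNB1 and 0.614 for KPNA2. With log2 library totals, r for CAND1 was 0.109, 0.324 and -0.252. At 3 h CAND1 had the lowest such r, and the other members ran from 0.197 (KPNA1) to 0.613 (KPNA2). The part of the RUV factors in the members' values was not tested beyond the fits with the factors as covariates. The part of the library totals was not tested.

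**Figure D5:**
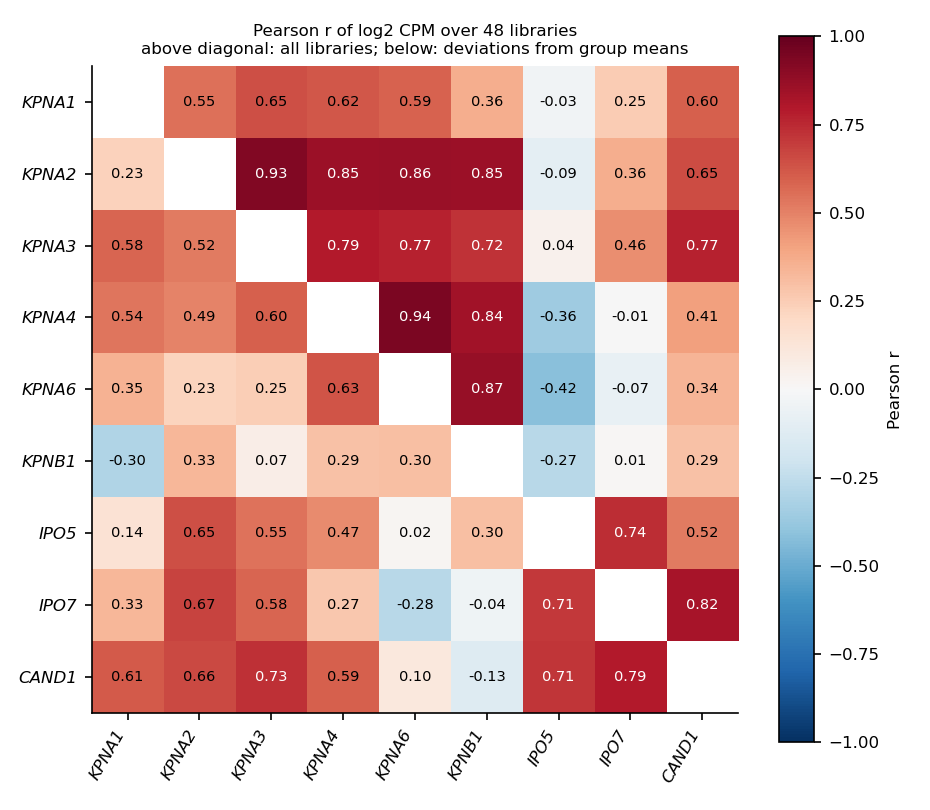
Pearson's r of log2 CPM between members over 48 libraries, above the diagonal for all libraries and below it for deviations from the mean of each arm and time (colour scale -1 to 1). Above the diagonal KPNA2 and KPNA3 reach 0.925, and below it IPO7 and CAND1 reach 0.792, the highest of the within-group values.

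The genes whose log2 CPM over the 48 libraries were most like a member's were named by the 3 highest values of r among all other genes. For KPNA2 these were CCNB1 (r = 0.973), NAA15 (r = 0.971) and PSMD11 (r = 0.967), the first of them a mitotic cyclin. For KPNA3 they were FBXO28 (r = 0.942), AMD1 (r = 0.94) and G3BP2 (r = 0.936). KPNB1 was nearest to HSPA9 (r = 0.96), MKI67 (r = 0.959) and DKC1 (r = 0.95), the second being a marker of proliferating cells. For KPNA4 the first 2 were GTF3C4 (r = 0.944) and KPNA6 (r = 0.94). KPNA6 was nearest to MIEF1 (r = 0.942), KPNA4 (r = 0.94) and DHX33 (r = 0.934), each of the pair thus being the second nearest of the other. IPO7 varied with SERBP1 (r = 0.923), RAB10 (r = 0.915) and SEPTIN2 (r = 0.911). IPO5 varied with SEPTIN11 (r = 0.891), CSE1L (r = 0.891) and CAST (r = 0.875), of which CSE1L is the export receptor of the importin alphas. CAND1 varied with PPP1CB (r = 0.945), CKAP2 (r = 0.94) and PPP1CC (r = 0.932), PPP1CB and PPP1CC being catalytic subunits of protein phosphatase 1. KPNA1 had the lowest such values, with CNOT6 (r = 0.773), SMAD5 (r = 0.769) and TBC1D15 (r = 0.765). All these r are descriptions over libraries that share time points and arms.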

How the data were processed

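RNA of 48 HEK293T libraries was sequenced by the authors as paired-end reads from stranded libraries, with ribosomal RNA depletion per the Methods, and demultiplexed with bcl2fastq per the labels. The authors deposited raw counts per gene for each time point, which were tested here, a log2 CPM table used as an alternative, and a table adjusted for unwanted variation, not used. The 2 RUV factors per library are a score that the authors deposited with the sample descriptions. TopHat (alignment), Cufflinks (quantification) and cutadapt (trimming) are the tools in the study's reporting summary. Which counter gave the deposited counts, and on which genome build, is not given in the sources used here, so that coordinates are of RefSeq promoters only. Groups were taken from the labels. Depth was 23952455 to 37099535 counts per library, and intervals of depth cover counting error only.

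Counts were fitted in R 4.3.3 with edgeR 4.0.16 (TMM, filterByExpr, robust quasi-likelihood F-test), over 16 libraries for arms and over 48 for time and interactions. The Benjamini-Hochberg adjustment was made over all genes of each comparison, with a threshold of 0.05. Log2 CPM used a prior count of 2, and lengths were from GENCODE 29. The fits were tested on simulated data, with 100 genes changed at each size. These were drawn from genes with a mean count over 100, whereas the lowest count of any member was 2351. Of those changed by 0.3 on the log2 scale, 27% were recovered in T-REX against DMSO at 3 h and 30% at 12 h. For 12 h against 3 h in T-REX cells it was 37%. Of those changed by 0.6, 77%, 85% and 87% were recovered in that order. These shares were not measured at the counts of the members, and a member that was not called is not shown to be unchanged. Replicate pairs differed by more than counting error (chi-square per degree of freedom 3.15 to 46.5 over 72 pairs). Alternatives were DESeq2 1.42.0, RLE factors, no filter, a replicate block, RUV covariates, limma-trend (limma 3.58.1), the 2 arms alone, and leaving out each library. Python 3.11.15 was used for tables and figures. All 9 members are named, with values per library where called in any comparison with T-REX. The rule for list genes named those called against at least 2 of 3 controls, and none was, so that the list genes named were picked after their values were seen. The members and lists were chosen with earlier results of these data known. One gene among those most like KPNA4 is not reported here.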

Additional observations from a re-analysis of the deposited data

Results flagged for a closer look

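Within groups of 4 libraries, 7 of 108 combinations of member and group held a library whose gap to the nearest other library, divided by the range of the group, passed Dixon's 95% critical value for 4 values. Chance alone gives about 1 in 20 such groups. KPNA1 stood at 239 CPM in light alone replicate 1 at 3 h (others 228.3 to 229.6) and at 205 CPM in T-REX replicate 3 at 12 h (others 219.9 to 223.1). KPNA6 stood at 254 CPM in probe alone replicate 4 at 6 h (others 245.8 to 246.7). KPNB1 stood at 552 CPM in DMSO replicate 3 at 12 h (others 590.9 to 593.4), the library in which IPO7, CAND1 and KPNA3 were highest of their group. IPO7 stood at 453 CPM in T-REX replicate 4 at 3 h (others 474.7 to 478.2) and at 520 CPM in DMSO replicate 3 at 6 h (others 588.1 to 597.6). CAND1 stood at 570 CPM in probe alone replicate 2 at 3 h (others 493.5 to 504). The part of these libraries in a comparison is given by the fits without them. Without T-REX replicate 4 at 3 h IPO7 stayed called against DMSO and was not called against probe alone.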

How the results depend on the processing

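Counts of members called are given as the number under the alternative after the number reported. They stand without the share of all genes called under the same alternative, so a changed count is not read as particular to the members. With the 2 arms fitted alone, the count in T-REX cells at 3 h went from 5 to 2 against DMSO and from 2 to 0 against probe alone, and at 12 h from 4 to 0 against DMSO, from 0 to 1 against light alone (KPNA3) and from 0 to 1 against probe alone (KPNA4). For probe alone against DMSO at 12 h it went from 5 to 0, and for light alone against probe alone from 0 to 2 (KPNA2 and KPNA3). These fits estimate the spread from 8 libraries in place of 16. With DESeq2 it went at 3 h from 0 to 1 against light alone, from 2 to 5 against probe alone, from 2 to 5 by the rule of at least 2 controls (CAND1, IPO5, IPO7, KPNA2 and KPNA3), and from 0 to 1 for light alone against DMSO, and at 12 h from 0 to 1 for light alone against probe alone. With the RUV factors as covariates it went in T-REX cells at 3 h from 0 to 3 against light alone, from 2 to 5 against probe alone and from 2 to 5 by the rule, at 6 h from 0 to 3 against light alone, and at 12 h from 0 to 2 against light alone, 0 to 1 against probe alone, 4 to 6 against DMSO (KPNA2 gained as lower, KPNA4 as higher) and 0 to 3 by the rule (KPNA2 and KPNA3 lower, KPNA4 higher). With the same covariates the controls gave 2 in place of 0 for light alone against DMSO at 3, 6 and 12 h, and for light alone against probe alone 2 at 3 h and 3 at 12 h. The cause was not tested in either case, and the method behind the factors is not stated.

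Leaving out 1 library gave 0 to 4 members against probe alone and 0 to 4 by the rule of at least 2 controls at 3 h, 0 to 5 for T-REX against DMSO at 12 h and 0 to 5 for probe alone against DMSO at 12 h. RLE factors and no filter changed no count, limma-trend none by over 1.5 times (CAND1 was lost for probe alone against DMSO at 12 h, adjusted p = 0.0544), and no called member changed sign under any alternative run. The replicate number was tried as a block: same-numbered libraries of 2 arms deviated together with r above 0.1 in 12 of 24 pairs at 3 h, 11 at 6 h and 8 at 12 h. All 4 pairs passed 0.1 in 1 of 18 pairings of arms, T-REX and probe alone at 6 h (r = 0.102 to 0.474, against at most 0.0695 for different numbers), where each of the 8 libraries correlated best with its own number. With the block, as without it, 0 members were called there. In the other 17 the numbers were not taken to pair the libraries. The block took T-REX against DMSO at 12 h from 4 to 3 members (KPNA3 lost) and probe alone against DMSO from 5 to 4 (CAND1 lost). The RUV covariates and the fit of 2 arms were run for the comparisons of arms only.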
